A study of Rattus norvegicus with 4 samples.

Results

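A set of 10 genes that mark radial glia and neural progenitors was followed in rat neural stem/progenitor cells: Nes, Vim, Fabp7, Sox2, Sox9, Pax6, Cdh2, Slc1a3, Ptprz1 and Prom1. They were chosen by symbol from 16881 gene symbols, with earlier results of these data known, and all 10 were present, each as 1 entry. Shares over all genes that stand beside counts of members below are therefore a description and not a test. All 10 passed the filter on low counts (10 counts in at least 1 library), as did 10516 genes in all, and 9 of the 10 members had 10 or more counts in every library. Prom1 had 7 counts in 1 of them.

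Cultures of wild-type (WT) cells were sequenced, with 1 library per platform and medium and 4 in all. The platforms were bare PUCL and PUCL@CNT1, a scaffold of the PUCL@CNT nanohybrid family that the study describes as electroconductive. On each platform, cells were held for 24 h in a medium that maintains stemness (maintenance medium), and 1 of the 2 cultures then spent a further 1.5 days in B-27 Plus neuronal medium (differentiation medium), so the effect of the medium and that of the longer culture cannot be told apart. The animal strain, the age of the donor tissue, the passage and the number of cultures behind a library were not given in the sources used here. Libraries were made from 500 ng of total RNA with a QuantSeq kit, in which reads start from the 3′ end of a transcript. Values are therefore given as CPM, the count scaled to a library size that all libraries share after correction by TMM (trimmed mean of M values), and are compared between libraries for 1 gene and not between genes.

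Radial glia are the elongated progenitors of the developing brain, and they give rise to neurons and later to glia. Nestin (Nes) and vimentin (Vim) are their intermediate filament proteins, Fabp7 carries fatty acids in them, and N-cadherin (Cdh2) holds them together at apical junctions. Sox2, Sox9 and Pax6 are transcription factors of the progenitor state, while Slc1a3 (a glutamate transporter), Ptprz1 (a receptor phosphatase) and Prom1 (CD133) lie in the cell membrane. Several of these genes, Slc1a3, Sox9, Vim, Fabp7 and Ptprz1 among them, are also active in astrocytes or oligodendrocyte precursors.

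Libraries held 6035848 to 6855984 counts. The overlapping ribosomal RNA entries Rn45s, Rn28s and Rn18s together took 11.3% of the maintenance library on PUCL and 9.03% of that on PUCL@CNT1. In the differentiation libraries they took 13.4% and 8.46%, so this share was lower on PUCL@CNT1 in both media. Of the markers of other cells, the 8 microglia genes were at 0 in every library. The 8 endothelial genes summed to between 2.78 and 29.5 CPM, with Pecam1, Cdh5, Tek and Vwf at 0. The neuron markers and the fibroblast and mural markers summed lower in both differentiation libraries, as given with the other fates. In bulk RNA, fewer cells of a type and less RNA per cell cannot be told apart.

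After the change to differentiation medium, 3 of the 10 members rose and 0 fell: Fabp7 by 1.84-fold, Cdh2 by 1.91-fold and Vim by 1.33-fold. The fit was a quasi-likelihood F test in edgeR over the 4 libraries with medium and platform as additive terms, with p-values adjusted over all 10516 genes (Benjamini-Hochberg, threshold 0.05). By it, 189 genes rose, which is 1.8% of those tested, and 107 fell, which is 1.02%, so 63.9% of calls were higher (53.5% with total counts in place of TMM). Of the members, 5 were higher and 0 lower at an unadjusted p under 0.05 (12.1% of all genes had one), and DESeq2 called 1 of them, Fabp7. Fitted log2 ratios were above 0 for 8 of 10 members, with a median of 0.48, against a median of 0.00 over all genes tested. With 1 library a group the fit takes the platforms as repeats of the medium change and has 1 residual degree of freedom, with 87.2 prior degrees of freedom from other genes. The p-value of a gene is thus set largely by how much other genes vary.

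**Figure D1:**
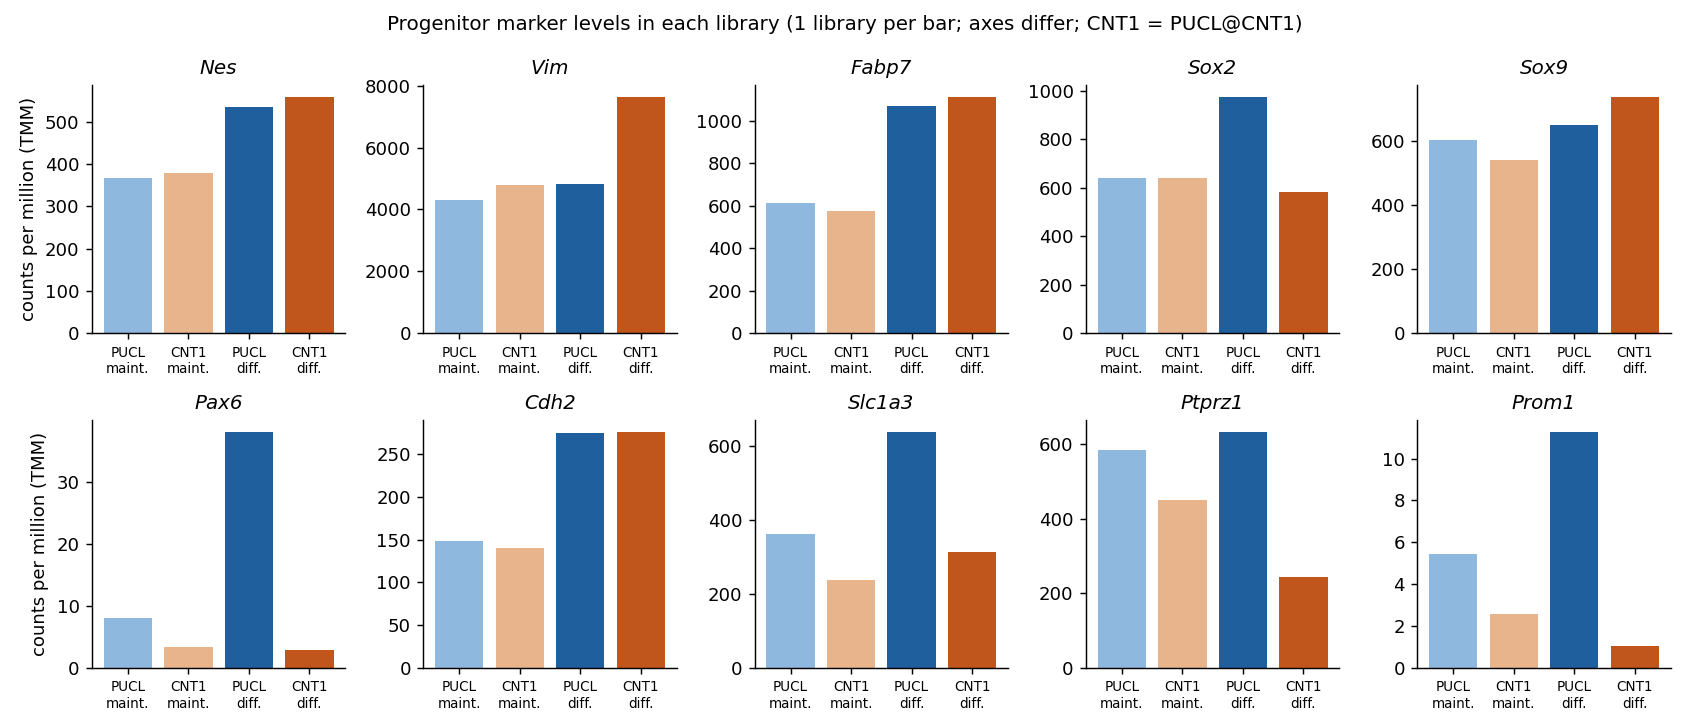
Level of each member in the 4 libraries, in TMM-scaled CPM on a linear axis that starts at 0 and differs between panels (CNT1 stands for PUCL@CNT1, maint. and diff. for the media, 1 library per bar). Fabp7, Cdh2 and Nes stood higher in both differentiation libraries at nearly equal levels on the platforms, while Sox2, Pax6, Slc1a3, Ptprz1 and Prom1 were highest in the PUCL differentiation library.

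Among the filament genes, Nes had 367 CPM on PUCL and 378 CPM on PUCL@CNT1 before the medium change, and 535 and 559 CPM after it. Both differentiation libraries lay above both maintenance libraries. The log2 ratio of media was 0.55 on PUCL (95% counting interval 0.47 to 0.62) and 0.56 on PUCL@CNT1 (0.49 to 0.64), and the fitted change missed the threshold (log2 0.55, SE 0.20, edgeR adjusted p 0.133). The intervals come from the exact binomial (Clopper-Pearson) interval of 1 count in the sum of both. With 1 library per group they cover counting error only. The reads carry no molecular identifiers, so copies of 1 molecule could not be removed, and the intervals may be too narrow even for counting error.

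Vim stood at 4314 and 4795 CPM in maintenance medium and at 4814 and 7635 CPM in differentiation medium (PUCL first). Only the PUCL@CNT1 differentiation library stood well above the others, and the PUCL differentiation library lay next to the PUCL@CNT1 maintenance library. With total counts in place of TMM those last values were 4729 and 4963 CPM, in the opposite order. The medium ratio was log2 0.16 on PUCL (0.13 to 0.18) and 0.67 on PUCL@CNT1 (0.65 to 0.69). Vim rose in the additive fit (log2 0.41, SE 0.12, edgeR adjusted p 0.0321), but its call was kept in 2 of 9 other fits, with adjusted p from 2.71e-06 to 0.397. Without the PUCL@CNT1 differentiation library the fitted log2 was 0.07, and without the PUCL differentiation library it was 0.75. These fits to 3 libraries had no platform term, so they mix the platform difference into the medium value.

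Fabp7, the lipid carrier, had 612 CPM on PUCL and 577 CPM on PUCL@CNT1 before the medium change, and 1071 and 1113 CPM after it. The 2 platforms lay close together within each medium, and the media did not overlap. Fabp7 rose by a fitted log2 of 0.88 (SE 0.17, edgeR adjusted p 0.000491), with log2 ratios of 0.81 on PUCL (0.75 to 0.86) and 0.95 on PUCL@CNT1 (0.89 to 1.01). The call was kept in 9 of 9 other fits to the 4 libraries, with adjusted p of at most 0.0309. In fits to 3 libraries the log2 value ranged from 0.83 to 0.92, and the call was kept only without the PUCL differentiation library (adjusted p 0.037). It was lost without the PUCL maintenance library (0.569), the PUCL@CNT1 maintenance library (0.789) or the PUCL@CNT1 differentiation library (0.0578).

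Cdh2, the adhesion molecule, followed at 148 and 141 CPM in maintenance medium and 274 and 276 CPM in differentiation medium. As with Fabp7, the media did not overlap and the platforms differed little within a medium. Cdh2 rose by a fitted log2 of 0.93 (SE 0.25, edgeR adjusted p 0.0164), with log2 ratios of 0.89 on PUCL (0.78 to 1.01) and 0.97 on PUCL@CNT1 (0.86 to 1.09). The call was kept in 7 of 9 other fits to the 4 libraries and missed in DESeq2 (adjusted p 0.0523) and in a fit without the platform term (0.0712). In none of the 4 fits that left out 1 library was it kept (adjusted p 0.0998 to 0.798), although the log2 value stayed between 0.90 and 0.97.

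The profiles of Fabp7 and Cdh2 over the 4 libraries were also compared with those of all genes whose mean count was at least 100, as the root mean square difference of centred log2 CPM. Of 6203 other genes, Cdh2 lay nearest to Fabp7 (0.03), followed by Clstn1 and Grcc10, both at 0.04 when rounded. Nearest to Cdh2 were Fabp7 (0.03), Grcc10 (0.03) and Cpe (0.05). With 4 points per profile, this is a description of these libraries.

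**Figure D2:**
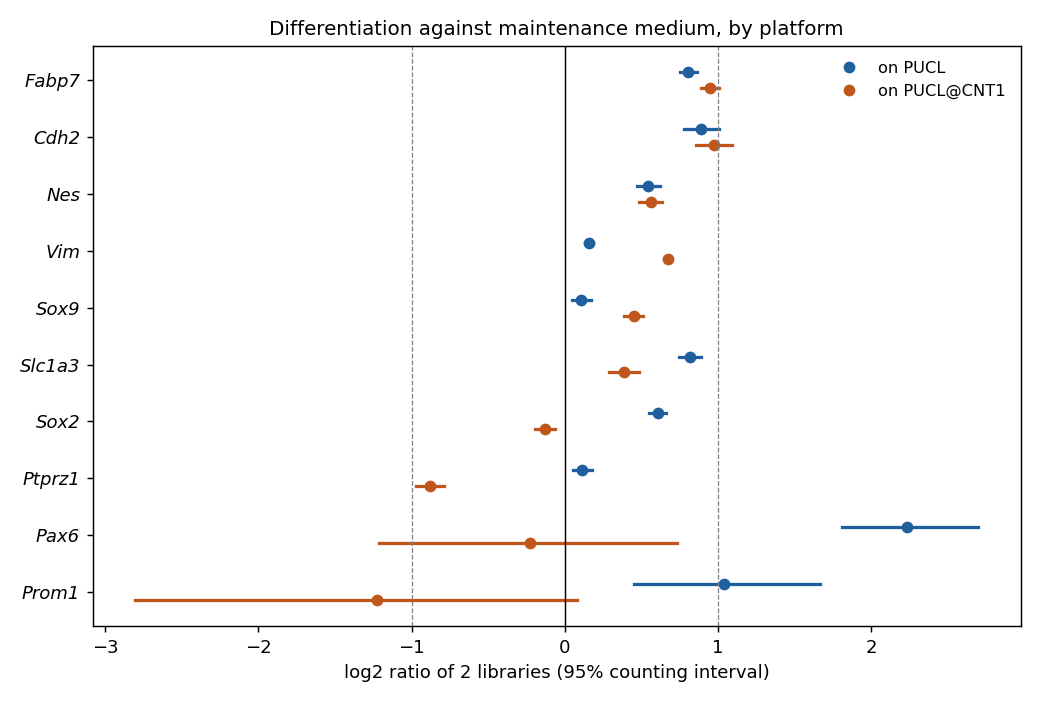
Log2 ratio of differentiation to maintenance medium for each member (points, 1 pair of libraries each), on PUCL (blue) and on PUCL@CNT1 (orange), with 95% counting intervals as lines and dashed lines at 2-fold. On PUCL the points ran from log2 0.11 (Sox9) to 2.23 (Pax6), and on PUCL@CNT1 from -1.22 (Prom1) to 0.97 (Cdh2). The intervals cover counting error only, so an interval away from 0 is not a call of a change.

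The transcription factors differed among themselves. Sox9 stood at 604 and 541 CPM in maintenance medium and at 652 and 739 CPM in differentiation medium, PUCL first. Its 2 differentiation libraries lay above its 2 maintenance libraries, by log2 0.11 on PUCL (0.05 to 0.17) and 0.45 on PUCL@CNT1 (0.39 to 0.51), and the fitted change missed the threshold (log2 0.28, SE 0.19, edgeR adjusted p 0.658). Sox2 stood at 639.8 and 639 CPM in maintenance medium and at 975 and 583.5 CPM in differentiation medium. Here 3 libraries lay near one another and the PUCL differentiation library stood above them. The Sox2 medium ratio was log2 0.61 on PUCL (0.55 to 0.66) and -0.13 on PUCL@CNT1 (-0.19 to -0.07), with a fitted log2 of 0.24 (SE 0.18, edgeR adjusted p 0.766).

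Pax6, a factor of dorsal forebrain progenitors, had low counts. Before the medium change it had 53 on PUCL (8.04 CPM) and 21 on PUCL@CNT1 (3.36 CPM), and after it 246 (38.1 CPM) and 19 (2.86 CPM). The PUCL differentiation library stood far above the other 3. Its ratio of media on PUCL was 4.70-fold (log2 2.23, 1.81 to 2.70), while that on PUCL@CNT1 (log2 -0.23, -1.21 to 0.73) included no change. Pax6 was the 1 member whose medium ratio on PUCL was at least 2-fold with the nearer interval bound beyond 1.5-fold, a rule of size met upwards by 16.0% and downwards by 15.2% of genes tested on PUCL. None of the 10 members met it on PUCL@CNT1, where 16.5% of genes did so upwards and 14.5% downwards. Such shares, here and below, cover all 10516 genes tested, of which 6204 had a mean of 100 counts or more, as did 8 of the 10 members. They were not taken among genes of like count, so they do not show whether the members were more stable than such genes. In edgeR, Pax6 missed the threshold for medium (log2 1.06, SE 1.10, adjusted p 0.889) and for platform (log2 -2.50, SE 1.12, adjusted p 0.609). The 3 genes with the profile most like that of Pax6, among 6204, were Elovl2 (root mean square difference 0.51), Tmlhe (0.54) and Zfp608 (0.55). They lay farther from it than the neighbours of Fabp7 lay from Fabp7.

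On PUCL@CNT1 against PUCL, the membrane proteins Slc1a3 and Ptprz1 were the members past the edgeR threshold, and both were lower, Slc1a3 by 1.76-fold and Ptprz1 by 1.83-fold. The other 8 members did not pass. Over all genes tested, 26 were lower on PUCL@CNT1, which is 0.247%, and 22 were higher, which is 0.209%, so 45.8% of calls were higher (33.3% with DESeq2 size factors and 30.8% with upper quartile factors, but 61.1% in DESeq2 and 57.5% in limma-voom). Of the members, 4 were lower and 1 higher at an unadjusted p under 0.05 (6.95% of all genes had one). Fitted platform ratios were below 0 for 7 of 10 members, with a median log2 of -0.20, against 0.00 over all genes tested.

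Slc1a3, which takes up glutamate, had 362 CPM on PUCL and 238 CPM on PUCL@CNT1 before the medium change, and 639 and 312 CPM after it. Both PUCL@CNT1 libraries lay below both PUCL libraries. The platform ratio was log2 -0.60 in maintenance medium (-0.70 to -0.51) and -1.03 in differentiation medium (-1.11 to -0.96), with a fitted log2 of -0.82 (SE 0.21, edgeR adjusted p 0.0457). Its change with medium, log2 0.82 on PUCL (0.75 to 0.89) and 0.39 on PUCL@CNT1 (0.29 to 0.49), missed the threshold (fitted log2 0.60, SE 0.21, edgeR adjusted p 0.109), while limma-voom called it (adjusted p 0.0336). In fits to 3 libraries the medium log2 value ran from 0.06 (without the PUCL differentiation library) to 1.09 (without the PUCL@CNT1 differentiation library). Without the PUCL maintenance library it was 1.00, and without that on PUCL@CNT1 it was 0.39. These fits had no platform term, so they mix the platform difference into the medium value.

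Ptprz1, a receptor for pleiotrophin, stood at 586 and 450.5 CPM in maintenance medium and at 634 and 245 CPM in differentiation medium. The 2 PUCL libraries were near each other, and both PUCL@CNT1 libraries lay below them, that in differentiation medium the lowest. The platform ratio was log2 -0.38 in maintenance medium (-0.45 to -0.31) and -1.37 in differentiation medium (-1.46 to -1.29), with a fitted log2 of -0.87 (SE 0.21, edgeR adjusted p 0.0256). With medium it moved in opposite directions, by log2 0.11 on PUCL (0.05 to 0.18) and -0.88 on PUCL@CNT1 (-0.97 to -0.79), and the fitted change was -0.38 (SE 0.21, adjusted p 0.477). Without the PUCL differentiation library that value was -1.08, and without the PUCL@CNT1 differentiation library its sign turned (0.29). These fits too had no platform term and mix the platform difference into the medium value. Ptn, which encodes pleiotrophin, missed the threshold for platform (log2 -0.12, adjusted p 1.00 when rounded) and medium (0.09, 0.953).

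The platform calls of Slc1a3 and Ptprz1 were each kept in 3 of 9 other fits to the 4 libraries (DESeq2, limma-voom, and edgeR without the ribosomal RNA entries) and in 0 of 4 fits that left out 1 library. Without the ribosomal RNA entries (the 3 given above and Rn5-8s) the fitted log2 values were -0.82 (adjusted p 0.0416) and -0.88 (0.0216). Without a medium term both had an adjusted p of 1.00 when rounded, and 0 genes passed in edgeR (388 at an unadjusted p under 0.05). The fitted log2 value stayed below 0 in all of these fits, between -1.21 and -0.39 for Slc1a3 and between -1.32 and -0.43 for Ptprz1.

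Prom1, a membrane protein of cell protrusions, had 36 counts on PUCL (5.46 CPM) and 16 on PUCL@CNT1 (2.56 CPM) before the medium change, and 73 (11.3 CPM) and 7 (1.05 CPM) after it. As for Pax6, the PUCL differentiation library was the highest and the PUCL@CNT1 differentiation library the lowest. Its platform ratio was log2 -1.07 in maintenance medium (-2.04 to -0.21) and -3.33 in differentiation medium (-4.79 to -2.31), but the fitted log2 of -2.23 had an SE of 2.44 (edgeR adjusted p 1.00 when rounded).

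**Figure D3:**
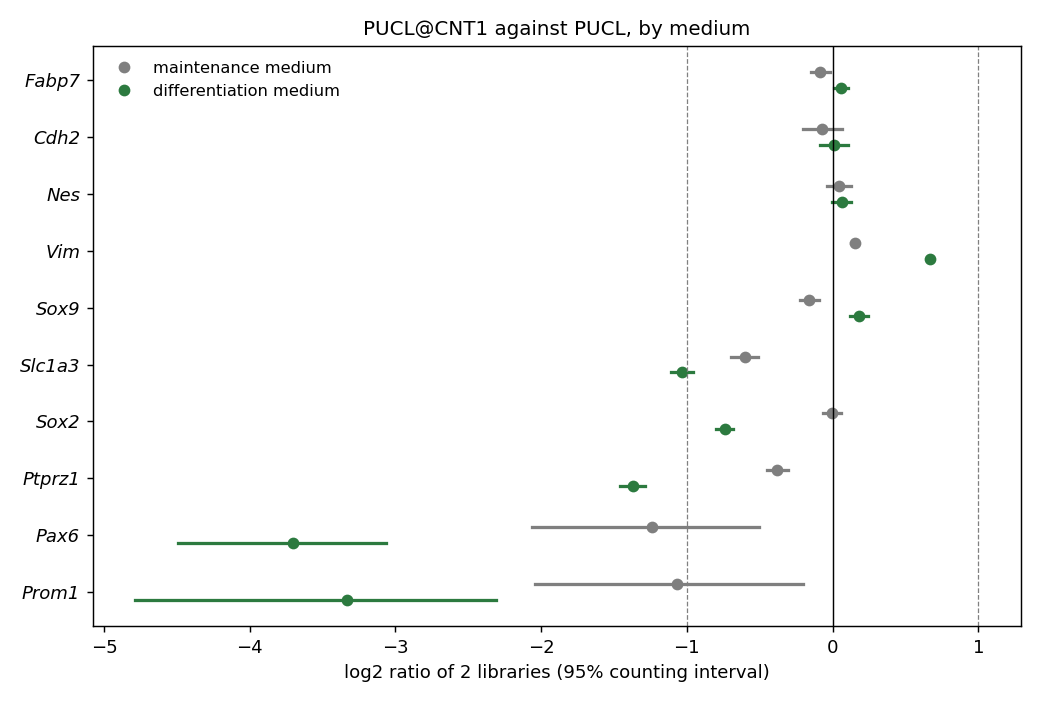
Log2 ratio of PUCL@CNT1 to PUCL for each member in maintenance medium (grey) and in differentiation medium (green), with 95% counting intervals and dashed lines at 2-fold. In differentiation medium Slc1a3, Ptprz1, Pax6 and Prom1 lay below the lower dashed line, Sox2 lay at -0.74, and Fabp7, Cdh2 and Nes lay close to 0.

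By the rule of size, 0 members were called between platforms in maintenance medium and 4 were lower on PUCL@CNT1 in differentiation medium: Slc1a3, Ptprz1, Pax6 and Prom1. Of all genes tested, 13.9% were lower and 12.1% higher by this rule before the medium change, and 15.6% were lower and 15.2% higher after it. Pax6 had log2 -1.24 in maintenance medium (-2.06 to -0.50) and -3.70 in differentiation medium (-4.49 to -3.06). In maintenance medium Pax6 and Prom1 were more than 2-fold lower on PUCL@CNT1, but their nearer interval bounds did not reach 1.5-fold. Fabp7 differed between platforms by log2 -0.09 in maintenance medium (-0.15 to -0.02) and 0.06 in differentiation medium (0.01 to 0.10). For Cdh2 the values were -0.07 (-0.20 to 0.06) and 0.01 (-0.08 to 0.11), and for Nes 0.04 (-0.04 to 0.13) and 0.06 (-0.01 to 0.13). Vim stood higher on PUCL@CNT1, by log2 0.15 (0.13 to 0.18) and 0.67 (0.64 to 0.69), and missed the threshold (fitted log2 0.41, SE 0.12, edgeR adjusted p 0.11), while limma-voom called it (adjusted p 9.25e-06). The 4 pair ratios of a gene share libraries, so they are not independent of one another.

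The change of the medium ratio between platforms was lower on PUCL@CNT1 by the rule of size for 2 members, Pax6 (log2 -2.46, -3.44 to -1.48) and Prom1 (-2.27, -3.64 to -0.90), against 14.1% of all genes tested, and for 0 members it was higher, against 15.4%. Ptprz1 had -0.99 (-1.10 to -0.89), and also met the rule with DESeq2 size factors (-1.01) or total counts (-1.04). Sox2 had -0.74 (-0.82 to -0.65), Slc1a3 -0.43 (-0.55 to -0.31) and Vim 0.51 (0.48 to 0.54). For Nes (0.02, -0.09 to 0.12) and Cdh2 (0.08, -0.08 to 0.24) the interval included 0. No residual degree of freedom is left for this quantity, so it has no test, and its normal intervals on log2 counts plus 0.5 cover counting error only.

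Counted over libraries, 5 members (Nes, Vim, Fabp7, Sox9 and Cdh2) lay higher in both differentiation libraries than in both maintenance libraries, against 19.4% of all genes tested. The other 5 (Sox2, Pax6, Slc1a3, Ptprz1 and Prom1) lay lower in both PUCL@CNT1 libraries than in both PUCL libraries, against 14.9%. With total counts in place of TMM, Vim left the first set and Sox2 the second, which left 4 members in each.

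**Figure D4:**
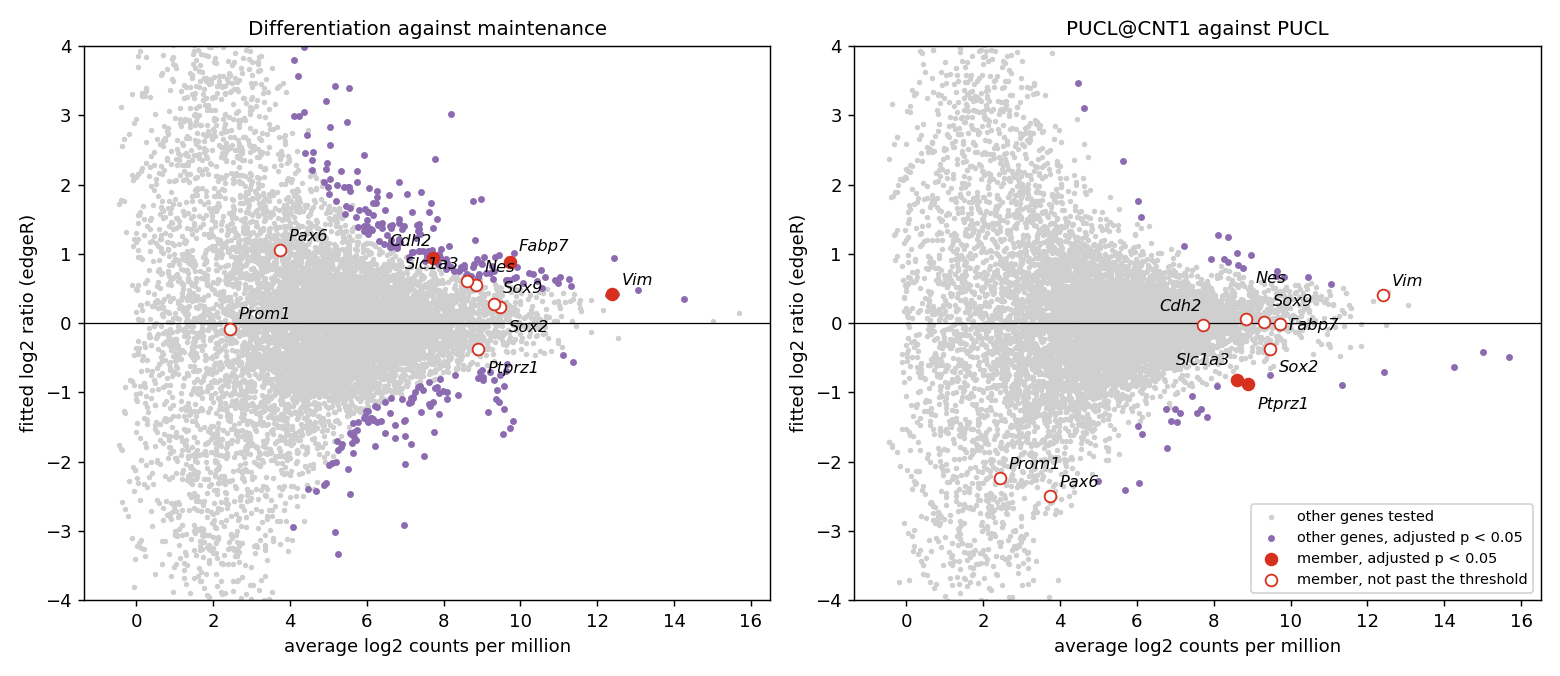
Fitted log2 ratio against average log2 CPM for all genes tested (grey), genes past an adjusted p of 0.05 in edgeR (purple) and the 10 members (red rings, filled where past the threshold), for medium (left) and platform (right). The vertical axes stop at a log2 ratio of 4 in each direction, beyond which 1113 genes lie on the left and 1059 on the right. Fabp7, Cdh2 and Vim are the filled members on the left, and Slc1a3 and Ptprz1 on the right.

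Promoter sequences were looked up for the 5 members past a threshold, to show what lies before the genes that moved. RefSeq windows (GRCr8 assembly, 250 bases before to 50 after a transcript start) were found for 7 of the 10 members, Fabp7, Vim and Slc1a3 among the 5. Cdh2, Ptprz1 and Sox9 had no entry. The windows are Fabp7 at chr20:37669356-37669655 (plus strand), Vim at chr17:81577011-81577310 (plus strand) and Slc1a3 at chr2:59557759-59558058 (minus strand, the first of 3 listed starts). They are printed 5′ to 3′, and capitals mark matches on either strand to 5 motifs: TGGGAA (core of the site of RBPJ, the Notch pathway factor), ATTGTT (core of the SOX site), ATGCAAAT (the octamer of POU factors), CCAAT and TATAAA.
Fabp7: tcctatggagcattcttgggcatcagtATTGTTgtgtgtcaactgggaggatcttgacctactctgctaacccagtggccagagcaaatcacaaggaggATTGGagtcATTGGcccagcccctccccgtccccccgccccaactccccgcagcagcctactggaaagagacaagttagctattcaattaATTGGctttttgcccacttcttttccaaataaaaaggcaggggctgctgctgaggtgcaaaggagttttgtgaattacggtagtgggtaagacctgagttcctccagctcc
Vim: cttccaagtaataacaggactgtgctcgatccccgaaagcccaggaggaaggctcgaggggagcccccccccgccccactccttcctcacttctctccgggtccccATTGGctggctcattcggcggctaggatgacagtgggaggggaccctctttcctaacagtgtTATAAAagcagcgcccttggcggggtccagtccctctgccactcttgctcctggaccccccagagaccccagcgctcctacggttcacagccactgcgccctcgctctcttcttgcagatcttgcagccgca
Slc1a3: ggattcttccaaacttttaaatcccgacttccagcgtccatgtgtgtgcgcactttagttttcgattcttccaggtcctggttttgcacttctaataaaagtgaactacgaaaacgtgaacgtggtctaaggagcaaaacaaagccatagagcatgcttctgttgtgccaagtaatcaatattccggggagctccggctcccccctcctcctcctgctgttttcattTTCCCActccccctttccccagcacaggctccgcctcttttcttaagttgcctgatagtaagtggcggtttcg
In the Fabp7 window ATTGTT began 223 bases before the start, and CCAAT stood on the opposite strand at 3 places. The Vim window held 1 CCAAT match on the opposite strand and 1 TATAAA, which began 82 bases before the start. The Slc1a3 window held TGGGAA on the opposite strand, 23 bases before the start. Of 33469 windows of the same length in that table, 11.7% held ATTGTT, 25.7% TGGGAA, 37.5% CCAAT, 14.2% TATAAA and 1.78% ATGCAAAT. These are matches of letters and were not tested as sites.

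Other genes of the progenitor state were read from a list of 44, of which 31 were tested. Of these, 2 rose with medium and 0 fell, and 21 had a fitted log2 above 0, with a median of 0.41. Nfix, a nuclear factor of late progenitors and glia, stood at 38.1, 22.4, 112 and 74.6 CPM (PUCL and then PUCL@CNT1 in maintenance medium, then the same in differentiation medium) and rose by a fitted log2 of 1.64 (SE 0.39, edgeR adjusted p 0.0058). Hes1, the Notch effector, stood at 37.8, 56.7, 114 and 126 CPM and rose. The 2 members of the list with the most counts missed the threshold, Dbi at log2 0.44 (adjusted p 0.166) and Zeb1 at -0.25 (0.782). DESeq2 called 0 of the 31 for medium. For platform, 0 of 31 passed in edgeR (4 at an unadjusted p under 0.05) and 0 in DESeq2, with a median log2 of -0.23 and 20 below 0.

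Partners and relatives of the members were mostly outside the threshold. Of 16 tested catenins and junction partners of N-cadherin, 1 rose with medium, Cdh6, a further cadherin (23.5, 31.4, 79.4 and 88.6 CPM, fitted log2 1.63, SE 0.41, edgeR adjusted p 0.0105), which DESeq2 did not call. Of 10 other intermediate filament genes 0 passed in edgeR or DESeq2 for either factor (0 for medium and 1 for platform at an unadjusted p under 0.05), and Lmna, a nuclear lamin, had log2 0.28 for medium (adjusted p 0.902). In edgeR and DESeq2, 0 passed for either factor among 8 other SOX and PAX genes, 14 regional patterning factors, 11 ligands and partners of Ptprz1, 3 other fatty acid binding proteins and 5 genes of glutamate transport and glutamine synthesis. At an unadjusted p under 0.05, edgeR gave 1, 1, 0, 0 and 1 of these for medium and 0, 2, 0, 0 and 1 for platform, in that order. Sox4 had log2 0.45 (adjusted p 0.501) and Sox8 0.72 (0.238) for medium, and Fabp5, the close relative of Fabp7, had 0.19 (0.813). Slc1a2, the other main astrocyte glutamate transporter, had 0 counts in every library, while Slc1a5, a transporter of neutral amino acids, had log2 0.64 for platform (adjusted p 0.256), the sign opposite to that of Slc1a3.

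Genes of other fates moved beside the members in part. Of 10 tested astrocyte markers (12 listed, with Slc1a2 and Gjb6 at 0 throughout), S100b (fitted log2 -1.36, SE 0.29, edgeR adjusted p 0.00578) and Sparcl1 (-1.30, SE 0.29, adjusted p 0.0115) were lower on PUCL@CNT1, as Slc1a3 and Ptprz1 were, and 8 of the 10 were below 0. At an unadjusted p under 0.05 in edgeR, 3 were lower and 1 higher, and DESeq2 called 0 of the 10 for platform. For 3 of the 10, both libraries of 1 platform had 0 counts. The median platform ratio of the list was log2 -0.16 in maintenance medium and -1.26 in differentiation medium. The astrocyte list summed to 836 and 794 CPM in maintenance medium and to 1543 and 779 CPM in differentiation medium, highest in the library in which Slc1a3, Sox2, Ptprz1, Pax6 and Prom1 were highest. Gfap, the filament of astrocytes, stood at 0, 19, 31 and 0 counts, and Aqp4, the water channel, at 0, 0, 12 and 0. With medium, 2 astrocyte markers rose, S100b and the secreted chaperone Clu. The part of astrocyte-like cells in the values of the members was not tested.

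Of 10 tested oligodendrocyte lineage markers 3 rose with medium (Olig1, Cnp and Mbp), of which DESeq2 called Olig1. The list summed to 967 and 845 CPM in maintenance medium and to 1571 and 1526 CPM in differentiation medium, higher in the same 2 libraries in which Fabp7 and Cdh2 were higher, and Gpr17 was at 0 throughout. The part of these cells in the rise of Fabp7 and Cdh2 was not tested.

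The summed markers of 2 other fates lay lower where Fabp7 and Cdh2 lay higher. The 12 neuron markers summed to 501 and 413 CPM in maintenance medium and to 292 and 239.6 CPM in differentiation medium, with Nefl at 0 throughout. Of the 11 tested, 0 passed for medium in edgeR or DESeq2, 4 were lower at an unadjusted p under 0.05, and 8 had a fitted log2 below 0, with a median of -0.93. The 9 fibroblast and mural markers summed to 1330.1 and 928 CPM in maintenance medium and to 644 and 576 CPM in differentiation medium, with Dcn, Lum and Rgs5 at 0. Acta2 and Tagln had the most counts of this list. Of the 6 tested, 1 fell with medium, Acta2, the smooth muscle actin (fitted log2 -1.10, SE 0.18, edgeR adjusted p 1.96e-05), which DESeq2 also called. Fitted log2 values were below 0 for 4 of the 6 and above 0 for 2, with a median of -0.67. The median ratio of media differed in sign between platforms, at log2 -2.27 on PUCL and 0.92 on PUCL@CNT1. The part of these cells in the values of the members was not tested.

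Of 20 genes of S phase and mitosis 0 passed in edgeR for either factor. At an unadjusted p under 0.05 there were 3 for medium and 5 for platform, and DESeq2 called 0 and 1. Fitted values were below 0 for 16 of the 20 for each factor, with a median log2 of -0.19 for medium and -0.21 for platform. The median ratio of media was log2 -0.03 on PUCL and -0.48 on PUCL@CNT1. That of platforms was 0.02 in maintenance medium and -0.55 in differentiation medium. The list summed to between 5300.2 and 6277 CPM. Of 4 tested markers of intermediate progenitors and neuroblasts 0 passed in edgeR or DESeq2, and 0 had an unadjusted p under 0.05, while Neurog1, Neurod1 and Neurod2 were at 0 in every library. Among the 3 tested ependymal genes 0 passed in edgeR or DESeq2 and 0 had an unadjusted p under 0.05, and the list summed to 29.1 CPM in the PUCL differentiation library and at most 6.82 CPM in the others.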

How the data were processed

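A total of 4 QuantSeq libraries of rat neural stem/progenitor cells were used, 1 per group. The authors deposited raw, unscaled counts for each gene symbol, made with Bowtie2, bedtools and the rn6 build, per the submitters' processing notes. Versions, annotation, strand setting and filters were not given in the sources used here, so overlapping and antisense genes could not be told apart. The files held 17048 entries for 16881 symbols, and entries of 1 symbol were summed. A gene was kept if any library had at least 10 counts of it (10516 genes). TMM scaling and the additive quasi-likelihood fit were made in edgeR 4.0.16, checked on simulated data, with DESeq2 1.42.0, limma-voom 3.58.1 and other scalings and filters as alternatives. An SE is the fitted log2 ratio divided by the square root of F. Ratios of 2 libraries used a prior count of 0.5. P-values rest on how far the 4 libraries depart from additive effects of medium and platform, in each gene and in other genes. They do not measure the spread between cultures, since each group had 1 library and nothing names separate cultures. The members and gene lists were chosen with earlier results of these data known. The text names all members and, from each list, genes past the threshold (up to 4) and the 2 with the most counts; Slc1a2, Gfap, Aqp4 and genes listed at 0 were named for their role. Older symbols were matched through a RefSeq table for 3 list genes. From the marker lists, 1 gene was left out and is not reported here.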

Additional observations from a re-analysis of the deposited data

Results flagged for a closer look

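Sox2 and Ptprz1 had medium ratios of opposite sign on the 2 platforms, each with a counting interval away from 0. The log2 ratio on PUCL@CNT1 minus that on PUCL was -0.74 for Sox2 and -0.99 for Ptprz1. With 1 library per group the difference was not tested.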

How the results depend on the processing

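No paired analysis by replicate number was possible because each group held 1 library and the labels give no replicate numbers. The additive fit already compares media within platforms. The fits to 3 libraries had 1 factor and assumed that the lone library of an arm varied like the others. For medium, 296 genes were called in edgeR, against 170 in DESeq2, 141 with a mean of 100 counts or more and 176 in a fit with 1 factor. The 3 members higher became 1 in DESeq2 and 1 with 1 factor. Leaving out 1 library gave 16 to 203 genes, 0 to 2 members higher and 0 to 1 lower.

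For platform, 48 genes were called, against 18 with DESeq2 size factors, 27 with total counts, 13 with upper quartile factors, 25 with no filter, 87 in limma-voom, and 0 both with a mean of 100 counts or more and with 1 factor. The 2 members lower became 0 under each of these but limma-voom, where 2 were lower and 1 higher. Leaving out 1 library gave 0 to 26 genes and 0 members lower.

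Some fitted values changed sign, and for fits to all 4 libraries the cause was not tested. Prom1 had a medium log2 of 0.60 in limma-voom and 0.62 with 1 factor, and Fabp7 a platform log2 of 0.000721 with upper quartile factors and 0.01 (0.00558) with 1 factor. Fits without 1 library had no term for the other factor and were not balanced for it, so their values mix both factors. In them, medium values ran from -0.13 to 0.60 for Sox2, -0.99 to 2.73 for Pax6, -1.08 to 0.29 for Ptprz1 and -1.91 to 1.49 for Prom1. Platform values ran from -0.24 to 0.36 for Nes, -0.54 to 0.47 for Fabp7, -0.21 to 0.23 for Sox9 and -0.58 to 0.50 for Cdh2. Within a medium (maintenance first), the platform log2 ratios were 0.04 and 0.06 for Nes and -0.09 and 0.06 for Fabp7. For Sox9 they were -0.16 and 0.18, and for Cdh2 -0.07 and 0.01. With 7 to 73 counts, Prom1 is limited by depth.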
